A study of Mus musculus with 26 samples.

Results

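The genes described here are the TNF superfamily signals that act as mitogens of liver progenitor cells, with their receptors: TWEAK (Tnfsf12) and its receptor Fn14 (Tnfrsf12a), lymphotoxin beta and alpha (Ltb, Lta) and the lymphotoxin beta receptor (Ltbr), and TNF (Tnf) with its receptors TNFR1 (Tnfrsf1a) and TNFR2 (Tnfrsf1b). They were taken by gene name, as all non-control probes that carry one of these 8 names, which gave 9 probes for 8 of the 26665 genes tested on the array. Tnfrsf1b had 2 probes and the others 1 each. The study followed liver cells of Foxl1-Cre; RosaYFP mice aged 6 to 10 weeks, in which the Foxl1 promoter drives the Cre recombinase and cells that have made it are marked, with their progeny, by a yellow fluorescent reporter (YFP) at the Rosa26 locus. The mice were kept for 3, 7 or 14 days on DDC, a compound that injures bile ducts and brings out a ductular, progenitor-like reaction. Non-parenchymal cells, which are the liver cells other than hepatocytes, were freed of cells with the leukocyte protein CD45 and then sorted by presence or absence of YFP. The day 0 samples were unsorted non-parenchymal cells of chow-fed mice of the same genotype, so that the diet, the removal of CD45-positive cells and the YFP sort cannot be told apart in a comparison with day 0. All groups, day 0 included, carry the Cre driver and the reporter. RNA was measured on 1-colour Agilent arrays, and 20 of the 26 samples were analysed here: 2 arrays of day 0, 3 arrays of the YFP-negative fraction at each of days 3, 7 and 14, and of the YFP-positive fraction 4 arrays at day 3, 3 at day 7 and 2 at day 14. The labels do not say whether the samples of a group came from separate mice or from pools, so p-values measure the spread between these samples only.

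Ligands of the TNF superfamily are trimers on or shed from the cell surface, and their receptors recruit TRAF adaptors and switch on NF-kB. TNFR1 carries a death domain, and it and TNFR2 drive mainly the canonical NF-kB route, whereas Fn14 and the lymphotoxin beta receptor also drive the alternative route through NIK and NF-kB2. In injured liver TWEAK, made largely by macrophages, is known to stimulate the proliferation of Fn14-bearing progenitor cells. Lymphotoxin beta, which needs lymphotoxin alpha to form the heterotrimer that binds its receptor, and TNF are likewise known from diet models of the progenitor reaction.

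Of the 8 genes, Ltb, Tnf and Lta lie side by side in the class III region of the major histocompatibility complex on chromosome 17, with no other protein-coding gene between them in the RefSeq gene table of GRCm38.p6. Promoter windows of 300 bases, from 250 before to 50 after the gene start, were found in RefSeq for 7 of the 8 genes, all but Tnfsf12. The NF-kB consensus, searched by its degenerate 10-base form on both strands, occurred in 1480 of 32851 such windows (4.51%) and among the 7 in that of Ltb only, once. The AP-1 type motif TGANTCA, present in 7.81% of windows, was in none of the 7. The Ltb stretch is shown because Ltb is 1 of the 2 genes with the largest difference between the fractions. It covers the 100 bases before the gene start on the plus strand of GRCm38.p6, chr17:35194407-35194506, with the match in capitals, 87 bases before the start.
Ltb promoter: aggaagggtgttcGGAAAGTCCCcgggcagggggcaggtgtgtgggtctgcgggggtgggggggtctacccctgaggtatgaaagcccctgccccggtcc

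The letters that were hybridised are shown for the probes on which the results turn, as the first 30 of their 60 bases, with the mm9 positions of the whole probe that the scanner files give. No annotation of that build was used here, so exon or untranslated region is not stated for them. The Tnfrsf12a probe lies at chr17:23812746-23812805 and the Ltb probe at chr17:35333097-35333156. The brighter Tnfrsf1b probe lies at chr4:144804304-144804363, and the dimmer one at chr4:144812866-144813439, a span of 574 bases for a 60-base probe.
Tnfrsf12a: agccttccaaggtgtccaattgccctatct
Ltb: atctgtattcattcctggaggatcgactga
Tnfrsf1b, brighter probe: gcaattgcactgtgtgctggacagaattcc
Tnfrsf1b, dimmer probe: ctggtgaactgcttcatcctggtgcagagg

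Levels are log2 signals minus the 75th percentile of their array, so that a difference of 1 is a factor of 2 and a level of 0 is the brightness at that percentile. Across the 20 arrays 81.0 to 91.2 percent of spots were well above background. All 9 probes were well above background and none saturated on all 20 arrays. Levels of different probes are not set against each other, since probes bind with different strength. In a bulk sample, fewer cells of a type and less RNA per cell cannot be told apart.

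The sorted fractions were checked first, with the biliary and progenitor markers (11 genes, Krt19 and Epcam among them) and the leukocyte gene Ptprc, which encodes CD45. On 8 of the 9 YFP-positive arrays Krt19 lay between 1.41 and 4.48, but on YFP-positive day 3 replicate 3 it lay at -1.47, within the range of the YFP-negative arrays. On YFP-negative day 3 replicate 3 it lay at 1.46 and on YFP-negative day 14 replicate 3 at 0.89, against -3.28 to -0.45 on the other 7. Ptprc was well above background on 19 of the 20 arrays, all but YFP-positive day 3 replicate 4, and reached 4.38 in sorts that were to hold no CD45-positive cells. It was highest, from 3.37 to 4.38, on YFP-negative day 3 replicate 4, YFP-negative day 7 replicates 3 and 4, YFP-positive day 3 replicate 1 and YFP-positive day 7 replicates 3 and 4. Results that rest on the 3 arrays that stand apart in Krt19 are given with and without them.

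**Figure D1:**
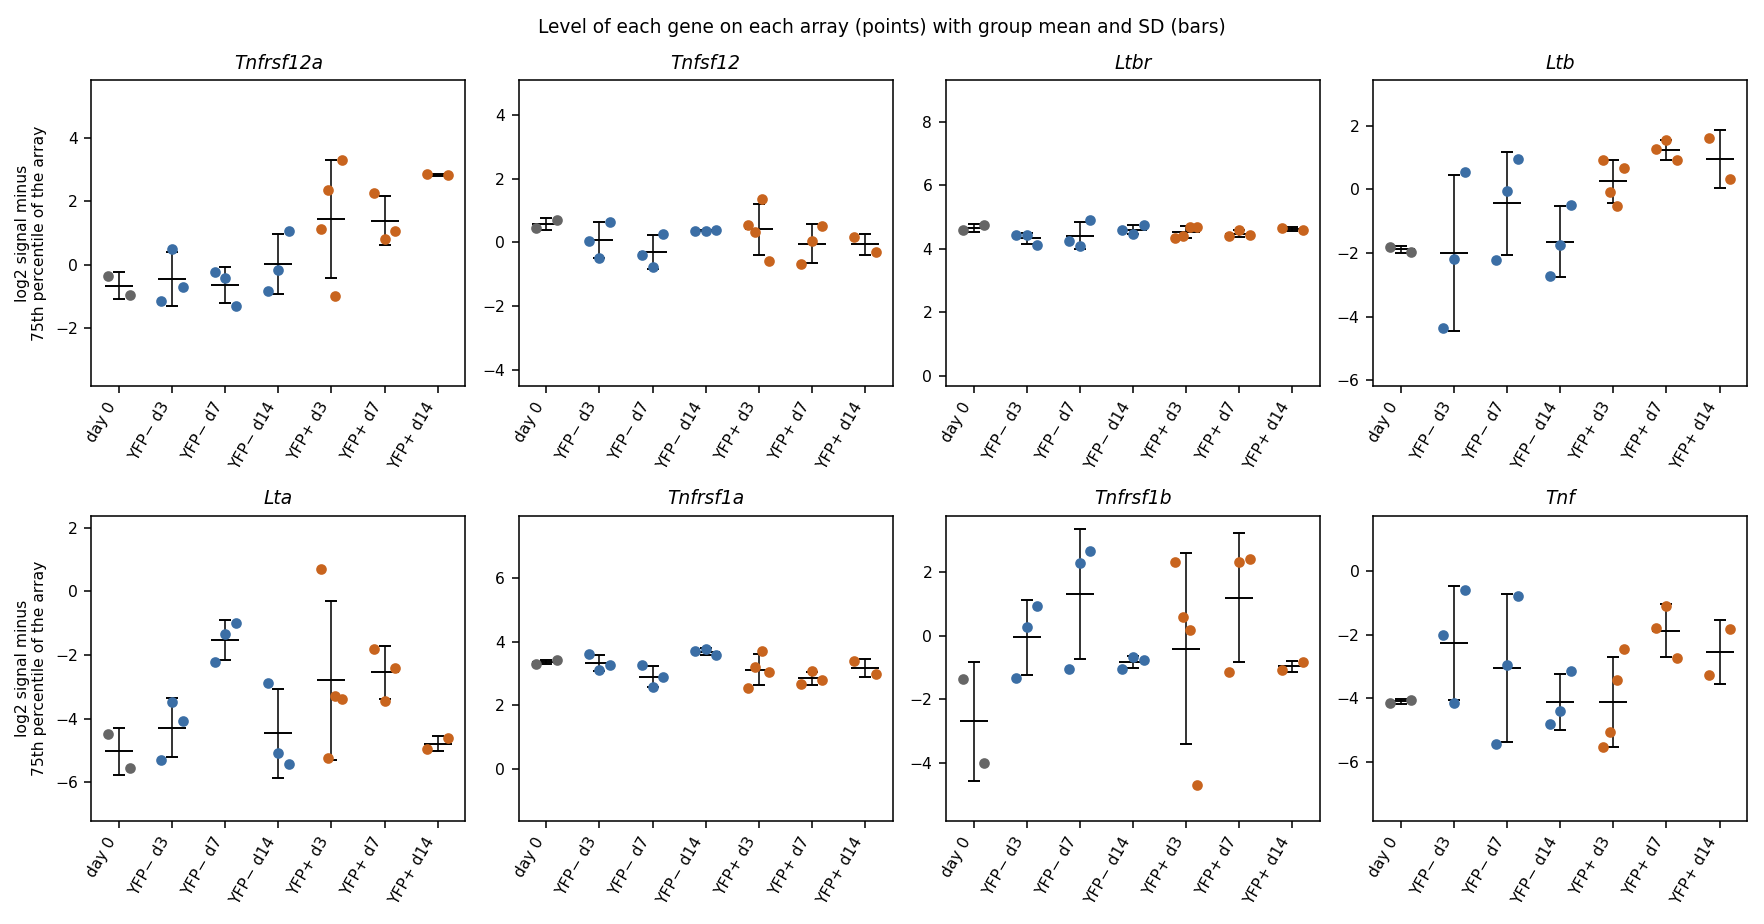
Level of each of the 8 genes on each array (points) in the 7 groups (horizontal axis), with the group mean and SD as bars. The vertical axis is the log2 signal minus the 75th percentile of the array and spans the same number of log2 units in every panel. Tnfrsf12a and Ltb sit higher in YFP-positive than in most YFP-negative samples, Ltbr and Tnfrsf1a hardly vary, and Lta, Tnf and Tnfrsf1b spread widely within groups.

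Setting the YFP-positive against the YFP-negative fraction asks which of these signals and receptors mark the cells of the Foxl1-Cre lineage during the diet. Tnfrsf12a and Ltb had the largest differences of the 8 genes, with more than a 4-fold higher mean level in YFP-positive cells over the 3 days, and the differences of the other 6 lay between -0.26 and 0.30 on the log2 scale. With limma's test and Benjamini-Hochberg adjustment over all 26665 genes, 0 of the 8 passed an adjusted p of 0.05 over the mean of days, where 171 genes did (0.641%), and 2 had an unadjusted p under 0.05, as 21.4% of all genes did. None of the 8 passed at day 3, 7 or 14, where 0%, 0% and 0.0225% of all genes were called. An unadjusted p under 0.05 was reached by 2, 1 and 2 of the 8 on these days, as by 7.84%, 5.27% and 12.3% of all genes. The median difference of the 8 genes over the mean of days was 0.08, beside 0.06 over all genes.

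Tnfrsf12a, the receptor for TWEAK, was on the YFP-positive arrays of day 3 at 1.11, 2.36, -0.98 and 3.29 (replicates 1 to 4). At day 7 these arrays gave 2.25, 0.81 and 1.07 and at day 14 they gave 2.84 and 2.81. YFP-negative arrays (replicates 1, 3 and 4 at days 3 and 7) gave -1.13, 0.49 and -0.71 at day 3, -0.22, -0.42 and -1.29 at day 7, and -0.82, -0.15 and 1.06 at day 14, and the day 0 arrays -0.35 and -0.95. All YFP-positive arrays but replicate 3 of day 3 lay above all day 0 arrays and above every YFP-negative array except day 14 replicate 3, which lay above 1 of them. From high to low the group means were YFP-positive day 14 (2.83 ± 0.02, SD, n = 2), YFP-positive day 3 (1.45 ± 1.85, n = 4), YFP-positive day 7 (1.38 ± 0.77, n = 3), then YFP-negative day 14 (0.03 ± 0.95, n = 3), day 3 (-0.45 ± 0.84, n = 3) and day 7 (-0.65 ± 0.57, n = 3), and day 0 (-0.65 ± 0.43, n = 2). Among neighbours in that order only YFP-positive day 7 and YFP-negative day 14 differed by more than the larger of their SDs.

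The fitted YFP-positive minus YFP-negative difference of Tnfrsf12a over the mean of days was 2.24 ± 0.50 (standard error, 95% interval 1.17 to 3.31), a 4.72-fold difference that missed the threshold (adjusted p = 0.0539). By day it was 1.89 ± 0.80 at day 3, 2.02 ± 0.85 at day 7 and 2.79 ± 0.95 at day 14, none past the threshold (adjusted p = 0.600, 0.860 and 0.341). At days 7 and 14 the arrays of the fractions did not overlap, which held in the same direction for 4.29% of all genes at day 7 and for 20.6% at day 14. The call depended on single arrays. Without YFP-positive day 3 replicate 3, whose biliary markers were low for a YFP-positive array, the difference was 2.51 ± 0.39 and passed (adjusted p = 0.00760). That fit called 1219 genes (4.57%). Without YFP-negative day 3 replicate 3 or YFP-negative day 14 replicate 3, the other arrays that stand apart in Krt19, the difference also passed (adjusted p = 0.0463 and 0.0465). These arrays were picked by biliary markers, which Tnfrsf12a follows from array to array (below). A larger difference without them is therefore no independent support.

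Arrays of both fractions shared a slide 3 times, 1 time at day 3 and 2 times at day 7, and there Tnfrsf12a was higher in the YFP-positive array by 2.24, 1.04 and 2.36. Some slides held arrays of 1 fraction without the other, and no slide held both fractions of day 14. Slide and fraction were thus partly confounded, so a fixed term for the slide leaves few comparisons within slides. That term gave 2.11 (adjusted p = 0.464), in a fit that called 2 genes in all, and a random one 2.21 (adjusted p = 0.0690).

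Tnfrsf12a followed the biliary markers from array to array. Its level correlated with the mean of the 11 markers over the 20 arrays (Pearson r = 0.932, Spearman rho = 0.949, permutation p = 2e-05 for each, the smallest that 100000 resamples can give). The relation held within the 9 YFP-positive arrays (r = 0.935, exact permutation p = 0.00135, rho = 0.850, exact p = 0.00607) and within the 9 YFP-negative arrays (r = 0.941, exact permutation p = 0.000198, rho = 0.950, exact p = 0.000353). Adjusted over the 48 relations computed (8 genes, 2 measures, 3 sets of arrays) the p-values of r were 0.00048, 0.0130 and 0.00304 and those of rho 0.00096, 0.0486 and 0.00564. Without the 2 arrays farthest from the median marker level r was 0.939, 0.778 and 0.863. All tests were two-sided, the arrays share the normalisation to their 75th percentile, and slides hold too few arrays for a value within each. Arrays were shuffled across days and, over all 20, across fractions and day 0, so these p-values take no account of the groups. How many of all genes follow these markers as closely was not counted. All 11 biliary markers were higher in YFP-positive cells over the mean of days (median difference 2.78), and 1 of them passed the test, as 0.641% of all genes did. The part of the biliary cell share in the Tnfrsf12a difference was not tested. Within the YFP-positive arrays Tnfrsf12a was lower where Ptprc was higher (rho = -0.883, exact permutation p = 0.00308, adjusted 0.0295), with r at -0.722 (exact permutation p = 0.00841, adjusted 0.0504) and at -0.594 without the 2 farthest arrays. Neither passed over all 20 arrays (r = -0.477, rho = -0.388, permutation p = 0.0384 and 0.0950, adjusted 0.154 and 0.285) or in the YFP-negative ones (r = -0.331, rho = -0.417, exact permutation p = 0.386 and 0.2696, adjusted 0.658 and 0.559).

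**Figure D2:**
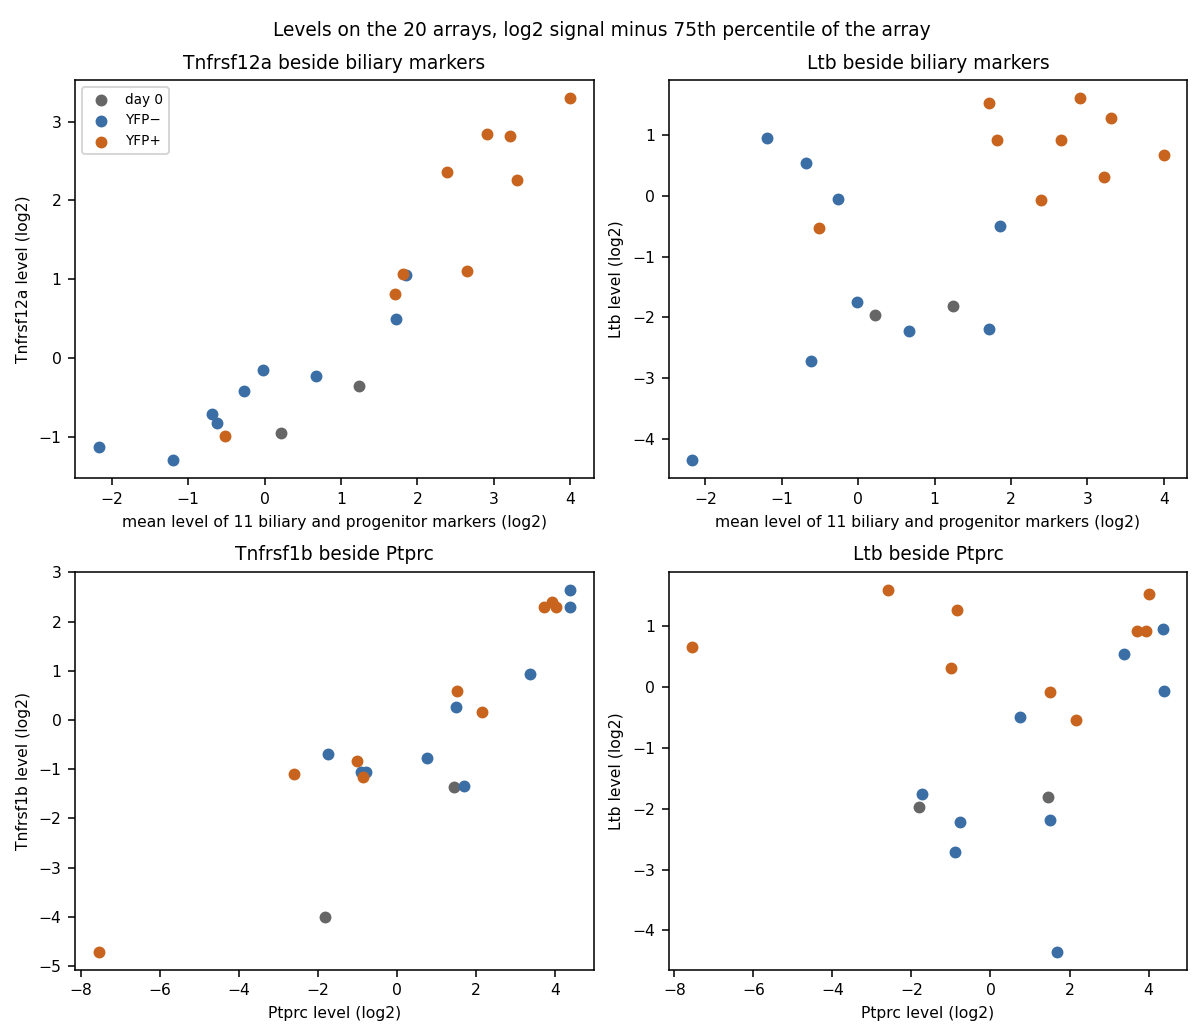
Level of Tnfrsf12a and Ltb against the mean level of 11 biliary and progenitor markers (upper panels) and of Tnfrsf1b and Ltb against Ptprc (lower panels), 1 point an array, in log2 units relative to the 75th percentile of the array. Tnfrsf12a is higher where the biliary mean is higher in both fractions, YFP-positive day 3 replicate 3 (biliary mean -0.52) lies among the YFP-negative points, and the brighter Tnfrsf1b probe is higher where Ptprc is higher in both fractions.

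By the rule for likeness, the genes most like Tnfrsf12a over the 20 arrays were Slc39a4 (Pearson r = 0.967), a zinc importer of epithelial membranes, Myo5b (r = 0.965), a motor of apical recycling in epithelia, and Abhd2 (r = 0.945).

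Tnfsf12, which encodes TWEAK, differed little between fractions. On YFP-negative arrays it lay between -0.77 and 0.65 and on YFP-positive arrays between -0.68 and 1.37, with overlapping ranges, and day 0 gave 0.44 and 0.70. The highest of all, at 1.37, was YFP-positive day 3 replicate 3, the array low in biliary markers. Group means lay between -0.30 ± 0.53 (SD, n = 3) in YFP-negative cells of day 7 and 0.57 ± 0.18 (n = 2) at day 0, and no neighbours in the order of means differed beyond the larger of their SDs. Its difference over the mean of days was 0.06 ± 0.28 (95% interval -0.54 to 0.66). At day 14 the YFP-positive arrays (0.17 and -0.30) lay below the YFP-negative ones (0.37, 0.35 and 0.39), which 13.6% of all genes did. The difference, -0.43 ± 0.54, missed the threshold (adjusted p = 0.781). Among the YFP-positive arrays Tnfsf12 was lower where the biliary mean was higher (r = -0.883, exact permutation p = 0.00391, adjusted 0.0313), but rho was -0.767 with an adjusted p of 0.114 and an exact p of 0.0214, and r was -0.641 without the 2 arrays farthest from the median. In YFP-negative arrays r was -0.238 (exact permutation p = 0.530, adjusted 0.820). Atp6v0a1, Frmd4a and the endothelial gene Eng were most like it (r = 0.741, 0.721 and 0.700).

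Ltbr, the receptor of the lymphotoxin heterotrimer, was the steadiest of the 8, with a 1.74-fold range over the 20 arrays. Its group means ran from 4.33 ± 0.18 (SD, n = 3) in YFP-negative cells of day 3 to 4.66 ± 0.12 (n = 2) at day 0. No neighbours in that order differed beyond the larger of their SDs. The difference over the mean of days was 0.10 ± 0.17 (95% interval -0.26 to 0.45). In YFP-negative cells the arrays of day 14 (4.58, 4.47 and 4.74) lay above those of day 3 (4.42, 4.44 and 4.13). That difference was 0.26 ± 0.28 (adjusted p = 0.9995), and 6.28% of all genes showed the same absence of overlap. Ndst1, Olfr101 and Scrt2 were most like it, at r of 0.749, 0.747 and 0.733.

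Ltb, the membrane-bound subunit of the lymphotoxin ligand, was on the YFP-positive arrays at 0.92, -0.07, -0.53 and 0.66 at day 3, at 1.27, 1.53 and 0.92 at day 7, and at 1.60 and 0.31 at day 14. The YFP-negative arrays gave -4.35, -2.19 and 0.54 at day 3, -2.22, -0.06 and 0.95 at day 7, and -2.71, -1.75 and -0.50 at day 14. Day 0 gave -1.81 and -1.96. The YFP-positive arrays spanned 2.13 log2 units, whereas the YFP-negative ones spanned 5.30 and in part reached the same level. The 3 highest group means were those of YFP-positive cells at day 7 (1.24 ± 0.31, SD, n = 3), day 14 (0.96 ± 0.92, n = 2) and day 3 (0.25 ± 0.67, n = 4). YFP-negative cells followed at day 7 (-0.44 ± 1.62, n = 3) and day 14 (-1.65 ± 1.11, n = 3), then day 0 (-1.88 ± 0.11, n = 2) and YFP-negative day 3 (-1.9997 ± 2.45, n = 3). No neighbours in that order differed beyond the larger of their SDs.

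The difference of Ltb over the mean of days was 2.18 ± 0.59 (95% interval 0.92 to 3.44), 4.53-fold, and did not pass the threshold (adjusted p = 0.0776). It was 2.25 ± 0.94 at day 3, 1.69 ± 1.01 at day 7 and 2.61 ± 1.13 at day 14 (adjusted p = 0.600, 0.9998 and 0.380), with no overlap of arrays at day 14, as for the 20.6% of all genes given above. With each array left out in turn, the 3 that stand apart in Krt19 included, the difference over the mean of days lay between 1.79 and 2.60 and missed the threshold each time (adjusted p from 0.0505 to 0.142). On shared slides the YFP-positive array was higher by 5.28 at day 3 and by 3.75 at day 7, and on the other slide of day 7 the arrays differed by -0.03. A fixed term for the slide gave 3.30 (adjusted p = 0.432).

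The 3 YFP-negative arrays with the highest Ltb, day 3 replicate 4 (0.54) and day 7 replicates 4 and 3 (0.95 and -0.06), were those with the highest Ptprc of that fraction (3.37, 4.38 and 4.38). On the YFP-positive side Ltb stood at 0.66 on the array where Ptprc was not above background, and at 1.60 on day 14 replicate 1, where Ptprc was at -2.60. Over all 20 arrays the correlation of Ltb with Ptprc was weak (r = 0.123, rho = 0.203, permutation p = 0.595 and 0.390, adjusted p = 0.856 and 0.645), with r at 0.489 without the 2 farthest arrays. Within the YFP-negative arrays it was 0.608 (rho = 0.567, exact permutation p = 0.0828 and 0.121, adjusted p = 0.249 and 0.321) and within the YFP-positive ones -0.049 (rho = 0.067, exact permutation p = 0.944 and 0.880, adjusted p = 0.964 and 0.982), none past the threshold. The correlation of Ltb with the biliary mean over all arrays was 0.569 (rho = 0.483, permutation p = 0.00976 and 0.0330, adjusted p = 0.0521 and 0.144). Within the fractions the biliary relation of Ltb did not hold (r = 0.471 in YFP-positive and 0.140 in YFP-negative arrays, exact permutation p = 0.233 and 0.717, adjusted p = 0.430 and 0.856). T and NK cell markers, of which 9 to 13 of 13 were well above background on an array, had a mean level between -6.44 and -1.11. Their median difference between fractions over the mean of days was -0.04, and that of the 8 B cell markers -0.02. At days 3, 7 and 14 it was -0.66, -0.21 and 0.93 for T and NK cell markers. For B cell markers it was 0.05, -0.36 and 0.96. At day 14, where Ltb differed most, 10 of 13 T and NK cell and 6 of 8 B cell markers were higher in YFP-positive cells, 0 past the test. The part of lymphocytes in the Ltb signal was not tested. Sema4a, Pglyrp1 and Mbp were most like Ltb over the arrays (r = 0.854, 0.854 and 0.850).

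Lta, the soluble partner of Ltb, varied widely, with a 75.8-fold range over the arrays. On YFP-positive day 3 arrays it gave 0.70, -5.23, -3.27 and -3.37, and at day 7 it gave -1.80, -3.43 and -2.40 in YFP-positive and -2.23, -1.35 and -0.99 in YFP-negative cells. The remaining YFP-negative arrays and those of day 0 lay between -5.54 and -2.87, and YFP-positive day 14 gave -4.96 and -4.61. The YFP-negative mean at day 7 (-1.52 ± 0.64, n = 3) was the highest and the day 0 mean (-5.02 ± 0.74, n = 2) the lowest. Only the step from YFP-negative to YFP-positive cells of day 7 in that order was larger than the larger SD. The YFP-positive minus YFP-negative difference was 0.05 ± 0.65 over the mean of days and on shared slides 6.00 at day 3 but -1.20 and -1.41 at day 7. The single array at 0.70, YFP-positive day 3 replicate 1, was also the one with the highest T and NK cell mean (-1.11). Without it the difference over the mean of days was -0.34. The next highest such means were -1.29 on YFP-negative day 7 replicate 3, with Lta at -1.35, and -1.57 on YFP-negative day 3 replicate 4, with Lta at -4.06. The part of lymphocytes in the Lta signal was not tested. The probe was printed 10 times, and its spots on 1 array differed with a median SD of 0.12 and a highest SD of 1.02. Pqlc3, Olfr958 and Cep78 were most like it (r = 0.827, 0.761 and 0.734).

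Tnfrsf1a, the broadly expressed TNF receptor, varied 2.35-fold over the arrays. Its group means lay between 2.84 ± 0.21 (SD, n = 3) in YFP-positive cells of day 7 and 3.68 ± 0.10 (n = 3) in YFP-negative cells of day 14. In the order of means only the step from the latter to day 0 (3.36 ± 0.07, n = 2) was larger than the larger SD. At day 14 the YFP-positive arrays (3.38 and 2.97) lay below the YFP-negative ones (3.70, 3.77 and 3.58), as for 13.6% of all genes, and the difference of -0.51 ± 0.37 missed the threshold (adjusted p = 0.590). Over the mean of days the difference was -0.26 ± 0.19 (95% interval -0.67 to 0.15). Pde2a (r = 0.902), the endothelial sialomucin gene Emcn (r = 0.890) and Crtap (r = 0.880) were most like Tnfrsf1a. The 9 endothelial markers were lower in YFP-positive cells for 9 of 9 (median -0.81), with 0 past the test.

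Tnfrsf1b, the TNF receptor of leukocytes, had a 164-fold range on its brighter probe, the widest of the 8 brightest probes, but an 18.0-fold range on the dimmer one. The brighter probe lay between 2.29 and 2.65 on 5 arrays, YFP-negative day 7 replicates 3 and 4, YFP-positive day 3 replicate 1 and YFP-positive day 7 replicates 3 and 4, and these are 5 of the 6 arrays with the highest Ptprc. It was lowest, at -4.71, on YFP-positive day 3 replicate 4, where Ptprc was not above background. The dimmer probe did not follow on these arrays of day 3, with -1.34 on replicate 1 and -0.99 on replicate 4, the highest of that group. On the brighter probe the day 14 arrays of both fractions lay within -1.09 and -0.69. Group means lay between -2.69 ± 1.87 (SD, n = 2) at day 0 and 1.30 ± 2.04 (n = 3) in YFP-negative cells of day 7, next to 1.18 ± 2.03 (n = 3) in YFP-positive cells of that day. No neighbours in the order of means differed beyond the larger of their SDs.

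Over the 20 arrays the level on the brighter probe correlated with that of Ptprc (r = 0.891, rho = 0.808, permutation p = 2e-05 and 0.0001, adjusted p = 0.00048 and 0.0024). Within the YFP-positive arrays r was 0.980 (exact permutation p = 0.000254, adjusted 0.00304), with rho at 0.883 (exact p = 0.00308, adjusted 0.0295). Within the YFP-negative arrays r was 0.853 (exact permutation p = 0.00537, adjusted 0.0368), with rho at 0.633 (exact p = 0.0760, adjusted 0.243). Without the 2 arrays farthest from the median of Ptprc r was 0.871, 0.967 and 0.853. The dimmer probe did not show this relation past the threshold. Its r with Ptprc was 0.458 over the 20 arrays (rho = 0.526, permutation p = 0.0362 and 0.0189), 0.327 in YFP-positive arrays (rho = 0.333, exact permutation p = 0.388 and 0.385) and 0.720 in YFP-negative arrays (rho = 0.667, exact permutation p = 0.0339 and 0.0589). Adjusted over the 6 relations computed for that probe, the p-values were 0.108, 0.669 and 0.108 for r and 0.114, 0.591 and 0.177 for rho. Without the 2 farthest arrays r was 0.618, 0.311 and 0.709. The relation of Tnfrsf1b to Ptprc thus passed the threshold on 1 of its 2 probes only, with r above 0 on both probes in each set of arrays. The genes most like the brighter probe were leukocyte genes, the integrin Itgam (r = 0.949), the sialophorin Spn (r = 0.946) and the monocyte receptor Ccr2 (r = 0.941). The means of 12 macrophage markers ran from -1.88 to 3.65 over the arrays, with no separation of the fractions (median difference -0.57, 0 past the test). The part of leukocytes in the Tnfrsf1b level was not tested.

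The YFP-positive minus YFP-negative difference of Tnfrsf1b over the mean of days was -0.20 ± 0.88, and its dimmer probe gave 0.25 ± 0.55, with opposite sign and neither near the threshold. On shared slides the brighter probe differed by 3.65 at day 3 and by 3.35 and -0.24 at day 7. In YFP-negative cells all 9 arrays of days 3 to 14 (-1.35 to 2.65) lay above both of day 0 (-1.37 and -4.01), though -1.35 is barely above -1.37, and 3.44% of all genes did so. This was on the brighter probe, and on the dimmer one 3 of the 9 arrays (-2.98, -2.50 and -1.98) lay below the higher day 0 array (-1.94). The difference there was 2.83 ± 1.43 and did not pass (adjusted p = 0.474).

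Tnf itself was at -4.15 and -4.04 at day 0. YFP-positive arrays gave -5.53, -5.04, -3.42 and -2.46 at day 3, -1.79, -1.09 and -2.74 at day 7, and -3.26 and -1.82 at day 14. YFP-negative arrays gave -2.01, -4.15 and -0.58 at day 3, -5.43, -2.95 and -0.78 at day 7, and -4.81, -4.40 and -3.13 at day 14. The highest group mean was that of YFP-positive cells at day 7 (-1.87 ± 0.83, SD, n = 3) and the lowest that of YFP-negative cells at day 14 (-4.12 ± 0.88, n = 3), with no step between neighbours beyond the larger SD. The fractions overlapped on every day, and the sign of the difference varied, with -1.86 ± 1.04 at day 3, 1.18 ± 1.11 at day 7 and 1.57 ± 1.25 at day 14, and over the mean of days of 0.30 ± 0.66. None of these passed (adjusted p = 0.600, 0.9998, 0.631 and 0.824). On shared slides it was -3.52 at day 3 and 4.34 and -1.96 at day 7. The difference of the changes, the day 14 minus day 3 change in YFP-positive less that in YFP-negative cells, gave 3.44 ± 1.62 and missed the threshold (adjusted p = 0.9999). It is named here for its size, after its value was seen. Ccl7, a monocyte chemokine, Gpr31c and Zcwpw1 were most like Tnf (r = 0.791, 0.785 and 0.752).

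**Figure D3:**
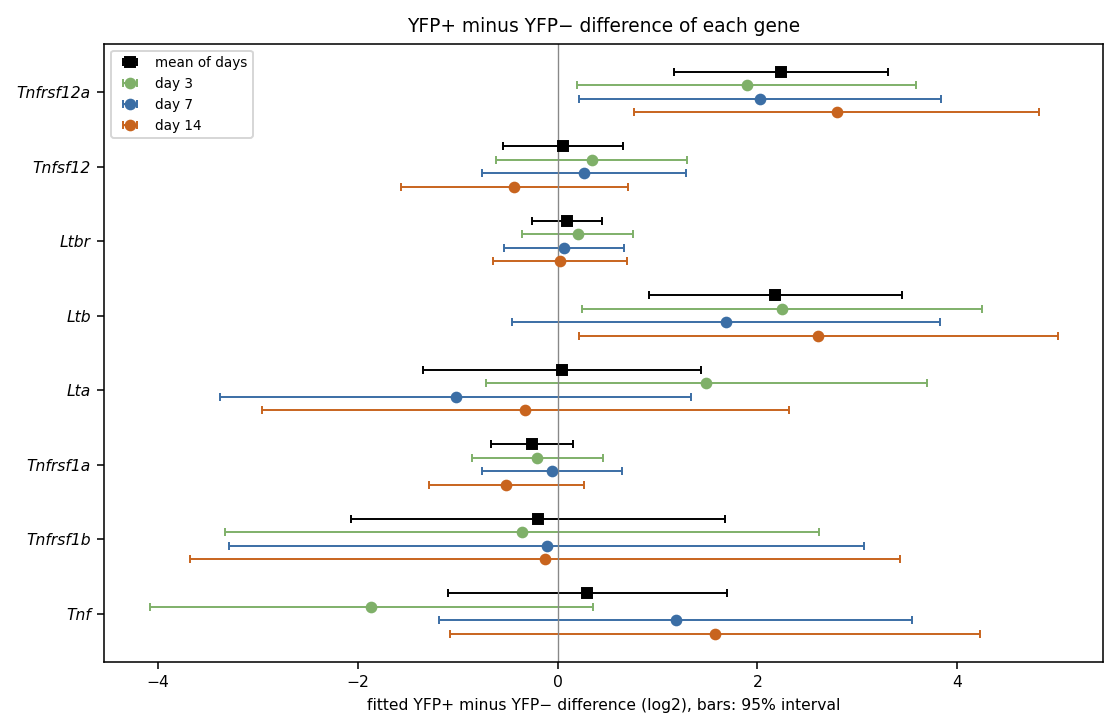
Fitted YFP-positive minus YFP-negative difference of each of the 8 genes (horizontal axis, log2) over the mean of days (black squares) and at day 3, 7 and 14 (circles), with 95% intervals as bars. The intervals of Tnfrsf12a lie above 0 at each day and those of Ltb at days 3 and 14, before adjustment over all genes, and those of the other 6 genes include 0.

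Against day 0, 0 of the 8 genes passed in YFP-positive cells (limma, 51 genes or 0.191% called) or in YFP-negative cells (30 genes or 0.113%). In YFP-positive cells 2 of the 8 had an unadjusted p under 0.05, as 13.2% of all genes did. In YFP-negative cells 0 of the 8 did, beside 10.8% of all genes. Every YFP-positive array lay above both day 0 arrays for Ltb, by 2.70 ± 0.97 on average (adjusted p = 0.265), as for 3.61% of all genes. For Tnfrsf12a the difference was 2.53 ± 0.82 (adjusted p = 0.221), with replicate 3 of day 3 below day 0. The median over all genes in that comparison was -0.27, and in YFP-negative cells -0.41, so that these differences are relative to a shifted middle. The authors' deposited table, made with a method not given in the sources used here, lists for Tnfrsf12a a 13.4-fold higher value at day 14 in YFP-positive cells with a false discovery rate of 0.36%, and for days 3 and 7 5.35-fold (9.55%) and 5.12-fold (1.12%). For Ltb the authors' deposited table gives 5.34-fold (1.59%), 8.08-fold (0.94%) and 6.59-fold (0.86%) at days 3, 7 and 14. For Tnf the authors' medians over the 10 spots in YFP-positive cells were 2.14-fold (28.15%), 9.89-fold (0.605%) and 12.7-fold (1.38%) at days 3, 7 and 14. In YFP-negative cells they were 5.81-fold (5.49%), 3.62-fold (18.96%) and 2.44-fold (16.79%). In the limma fit used here Tnf over the mean of days differed from day 0 by 1.25 ± 1.07 in YFP-positive cells (adjusted p = 0.650). In YFP-negative cells the difference was 0.96 ± 1.07 (adjusted p = 0.721), and neither passed. For Lta at day 7 the authors give 15.5-fold (0.69%) in YFP-negative and 6.75-fold (1.7%) in YFP-positive cells. On the brighter Tnfrsf1b probe they give 9.07-fold (7.31%) and 9.98-fold (4.36%) for the same day and fractions, and on the dimmer one 2.555-fold (32.21%) and 4.08-fold (6.17%). These entries are a selection, and the share of all probes at such rates was not counted. The deposited table may rest on other samples than the 20 arrays used here, since the series has 4 day 0 samples and 2 were used.

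Between days 3 and 14 of the diet, 0 of the 8 passed in YFP-positive cells (limma, 7 genes or 0.0263% called), in YFP-negative cells (0%) or for the difference of these changes (0%). In each, 0 of the 8 had an unadjusted p under 0.05, beside 6.36%, 3.69% and 2.85% of all genes.

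Of the other genes of the pathway, 79 of 80 listed were measured. Of the 13 measured ligands of the family 0 passed over the mean of days, with a median difference of 0.50 beside 0.06 over all genes. The smallest p-values were those of Cd70, a T cell costimulator, Tnfsf18, and Fasl, the death ligand. Their differences were 0.72 ± 0.29, -2.02 ± 0.98 and 0.89 ± 0.49 (adjusted p = 0.176, 0.250 and 0.306). Tnfsf18 was well above background on 13 of the 20 arrays only, and a second Fasl probe gave -0.51.

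Over the mean of days 0.641% of all genes were called, 57 higher and 114 lower in YFP-positive than in YFP-negative cells. Of the 23 other receptors 0 rose and 2 fell in YFP-positive relative to YFP-negative cells, with a median of -0.03. They were Tnfrsf11b, the decoy receptor osteoprotegerin (-2.57 ± 0.48, adjusted p = 0.0315), and Ngfr, the low-affinity nerve growth factor receptor (-3.10 ± 0.62, adjusted p = 0.0362). A dimmer Ngfr probe went the other way (0.77 ± 0.38). Ngfr also stands among the 12 stellate and myofibroblast markers, of which 11 were lower in YFP-positive cells and 6 fell (median -3.12), and the part of these cells in both falls was not tested. Leaving out a single array ended the Tnfrsf11b call in 8 of 20 cases and the Ngfr call in 11 of 20. A fixed term for the slide ended both (adjusted p = 0.519 and 0.527), as did a replicate block (adjusted p = 0.0558 and 0.0800), and the mean of both probes took Ngfr to -1.17 (adjusted p = 0.0939).

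Of the 19 signalling genes 0 passed, with a median of 0.06. The smallest p-values belonged to Birc2, the ubiquitin ligase cIAP1 (0.90 ± 0.28, adjusted p = 0.0991), Traf3, a brake on NIK (0.50 ± 0.19, adjusted p = 0.158), and Cflar, an inhibitor of caspase 8 (-0.48 ± 0.20, adjusted p = 0.181). Dimmer Cflar probes went in both directions, from -0.45 to 0.07.

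Of the 24 NF-kB target and feedback genes 1 rose, the chemokine Ccl20 (1.92 ± 0.37, adjusted p = 0.0348), and 0 fell, where 0.641% of all genes were called. The median of the 24 was 0.29 beside 0.06 over all genes. The homing chemokine Ccl19 was close on its brighter probe (-4.37 ± 0.97, adjusted p = 0.0522) and past the threshold on its dimmer one (-2.60 ± 0.41, adjusted p = 0.0158, in a fit of all probes) and by the mean of both (-3.49, adjusted p = 0.0301), and is named after its values were seen. Against day 0, where 0.191% of all genes were called, 2 of the 24 rose in YFP-positive cells, the neutrophil chemokine Cxcl5 (7.996 ± 1.26, adjusted p = 0.0183) and the monocyte chemokine Ccl2 (3.95 ± 0.67, adjusted p = 0.0269). In YFP-negative cells these were higher than at day 0 by 4.95 ± 1.25 and 2.64 ± 0.67 and missed the threshold (adjusted p = 0.212 each). Leaving out a single array ended the Ccl20 call in 12 of 20 cases, and so did a fixed slide term (adjusted p = 0.633), a replicate block (adjusted p = 0.0629) and normexp background (adjusted p = 0.0901). Without YFP-positive day 3 replicate 3, 6 of the 24 targets passed between the fractions, in a fit that called 4.57% of all genes against 0.641% with it, with Ccl20 at 2.05, Cxcl5 at 3.41, Csf2 at 1.94 and Nfkb2, the precursor of the alternative route, at 1.28 higher, and the homing chemokines Ccl19 at -4.45 and Ccl21a at -2.98 lower.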

How the data were processed

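RNA of each sample was amplified (WT-Ovation Pico), labelled with Cy3 and hybridised to 1-colour Agilent mouse arrays, per the labels' protocols. Per the file headers the intensities were read with Agilent Feature Extraction 10.5.1.1, whereas the submitters' processing notes name 9.53, and the deposited processed intensity is already background-corrected. The deposited table of the authors gives a signed fold change of each group against day 0 and a false discovery rate in percent, both used here as a score whose method is not given in the sources used here.

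Main values were log2 of the processed intensity minus the 75th percentile of each array, with outlier spots left out and the spots of a probe averaged. A gene was represented by its brightest probe, and probes well above background on fewer than 2 arrays were left out, which kept 39615 of 41174. All 7 groups were fitted together in limma 3.58.1 (R 4.3.3), with Benjamini-Hochberg adjustment over 26665 genes and a threshold of 0.05. Errors of differences are standard errors of that fit, and the script was tested on simulated data. The number of arrays, 2 to 4 a group, limits the precision.

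The genes and lists were chosen with earlier results of these data known. Fitted differences are given for all 8 genes between the fractions over the mean of days, and elsewhere for those past the threshold or without overlap. Other values of Tnfrsf12a, Ltb and Tnf, by day or against day 0, are given beside them. From each pathway list those past the threshold are named or, if none, the 3 with the smallest p, and as most like a gene the 3 with the highest Pearson r. Relations to markers, added after seeing the data, used permutation tests, with the second Tnfrsf1b probe as a family of its own. The alternatives were normexp background, quantile scaling, no filter, the mean of probes, slide and replicate blocks, array weights and each array left out. The transcript of the Cre driver gene is not reported here, and 6 samples were not analysed here.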

Additional observations from a re-analysis of the deposited data

How the results depend on the processing

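The counts of genes past the threshold and the differences of the named genes between the fractions were recomputed under 29 alternatives, and the dimmer Tnfrsf1b probe under 28. The relations to markers, the most-like genes, the Tnf difference of changes and Cxcl5 and Ccl2 against day 0 were not. The difference of Tnfrsf12a between the fractions over the mean of days stayed between 2.03 and 2.66, with adjusted p from 0.00371 to 0.464, and that of Ltb between 1.79 and 3.30, with adjusted p from 0.0505 to 0.432. The count of the 8 genes past the threshold became 1, Tnfrsf12a, with quantile scaling (adjusted p = 0.0362, 1086 genes called against 171) and with array weights, where it was also 1 against day 0 in YFP-positive cells. It ran from 0 to 1 with each array left out. Leaving out both day 3 arrays numbered 3, chosen after seeing the data, also gave 1 (2.66, adjusted p = 0.00371, 936 genes called). The cause was not tested.

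Deviations of same-numbered arrays of different groups correlated at -0.24 to 0.39 (median 0.0047, 43 pairs). Those of other numbers correlated at -0.28 to 0.31 (median -0.0040, 127 pairs). Most same-numbered pairs join different days or day 0, so a pairing of the fractions of a day by number was not tested. A replicate block gave Tnfrsf12a 2.20 (adjusted p = 0.120) and Ltb 2.37 (adjusted p = 0.0971), with 42 genes called. Normexp called 43 genes and the slide as a fixed block 2, against 139 with a random slide block, 167 without the filter, 202 with array weights, 211 with the mean of probes, 1086 with quantile scaling, 936 without both day 3 arrays numbered 3, and from 16 to 1219 with an array left out.

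Of the other receptors past the threshold (2), 1 was left with normexp, with the mean of probes and with array weights, 0 with the slide as a fixed block or the replicate block, and 0 to 3 with an array left out. Of the targets (1), 0 were left with normexp, the fixed slide block or the replicate block, and 6 passed with quantile scaling, 2 with the mean of probes or a random slide block, 4 without both arrays numbered 3 and 0 to 6 with an array left out. For signalling genes (0) the range was 0 to 1.

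Directions turned only in genes far from the threshold. Tnfrsf1b between the fractions was 0.0252 with the mean of probes, 2.46 with the fixed slide block, 0.29 with array weights and -0.59 to 0.28 with an array left out, its dimmer probe -0.12 to 0.53, and against day 0 in YFP-negative cells -0.16 with the fixed slide block. Tnf was -0.41 with the fixed slide block, -0.10 without both arrays numbered 3 and -0.10 to 0.68 with an array left out. Lta was -0.35 with array weights and -0.34 to 0.32 with an array left out. Tnfsf12 was -0.14 without both arrays and -0.049 to 0.17 with an array left out. Tnfsf18 was 0.043 with the fixed slide block.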
